A study of Drosophila melanogaster with 2 samples.

Results

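Tm2, TpnC41C and TpnC73F encode proteins of the muscle thin filament, and they are 3 of the 2377 genes that the array annotation named with a symbol of their own. They were chosen by their symbols with results of these arrays already known, and the values that chose them were their ethanol and water ratios on both arrays under both possible sign codings. Those ratios are therefore given as a description, with no test. Each gene was represented by 1 clone spotted in duplicate, so each had 4 values in all, and no filter on low values was applied.

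In striated muscle, tropomyosin lies along the actin filament and blocks the sites where myosin binds. The troponin complex sits on tropomyosin: troponin C binds calcium, troponin I inhibits, and troponin T anchors the complex. Calcium bound to troponin C lets tropomyosin move and contraction start. Drosophila has several troponin C genes used in different muscles, and Tm2 encodes a tropomyosin of muscle, including the indirect flight muscle.

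The RNA came from whole adult females of the wild-type strain Oregon-R, aged 4 to 10 days, after a mist of 2 mL of 99% ethanol or of distilled water settled on them in a Potter tower. About 240 flies went into an extract, 80 µg of total RNA was labelled, and both treatments shared an 80% ethanol wash of the RNA pellet. Sampling followed the spray by 4 h in the series text and by 6 h in the label of replicate 1, while the label of replicate 2 states no time. Each of 2 spotted arrays paired 1 ethanol extract (Cy3 on array 1, Cy5 on array 2) with 1 water extract (Cy5 on array 1, Cy3 on array 2), and the series text calls the pairs biological replicates.

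The deposited value of a spot is 1 signed log ratio, read here as log2. Its quartiles were similar on both arrays, at values of -0.22 and 0.22 on array 1 and of -0.25 and 0.25 on array 2 over 16896 spots. The files do not state whether ethanol or water is on top, nor whether the 2 arrays run the same way after the dye swap. Signs are therefore those of the deposited values, none is read as higher in ethanol or in water, and each result is also given with array 2 turned in sign. A ratio holds no expression level, so muscle content could not be checked from marker levels. In RNA of whole flies, fewer muscle cells and less RNA per muscle cell cannot be told apart.

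Tm2, the tropomyosin gene, had the widest ratio of the 3 on array 1. Its duplicate spots read 1.19 and 1.38 there, a mean of 1.29 or 2.44-fold. On array 2 they read -0.28 and 0.53, a mean of 0.12 or 1.09-fold. The array 1 spots lay close together and far from 0, whereas the array 2 spots lay on either side of 0. In size, the array 1 mean was rank 20 of 2377 genes and the array 2 mean rank 1456. The mean of both arrays was 0.70 ± 0.82 (SD, n = 2), and 0.58 ± 1.00 with array 2 turned. Under either coding the SD exceeded the mean.

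TpnC41C, a troponin C gene of adult muscle, had opposite signs on the arrays. Its spots read -0.72 and -0.98 on array 1, a mean of -0.85 or 1.80-fold from equality. On array 2 they read 0.82 and 0.13, a mean of 0.47 or 1.39-fold. All 4 values fell on one side of 0 once array 2 was turned. The size was rank 51 on array 1 and rank 230 on array 2, so that of the 3 genes TpnC41C was the one farthest from equality on array 2. As deposited, the mean of both arrays was -0.19 ± 0.94 (SD, n = 2). With array 2 turned it was -0.66 ± 0.27.

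TpnC73F, a second troponin C gene, was negative at all 4 values as deposited. Its spots read -1.03 and -0.52 on array 1, a mean of -0.78 or 1.71-fold from equality. On array 2 they read -0.14 and -0.42, a mean of -0.28 or 1.21-fold. Both array 1 spots were more negative than both array 2 spots, but duplicate spots repeat 1 clone, so nothing is read from that order. The size was rank 67 on array 1 and rank 691 on array 2. The mean of both arrays was -0.53 ± 0.35 (SD, n = 2) as deposited and -0.25 ± 0.75 with array 2 turned.

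**Figure D1:**
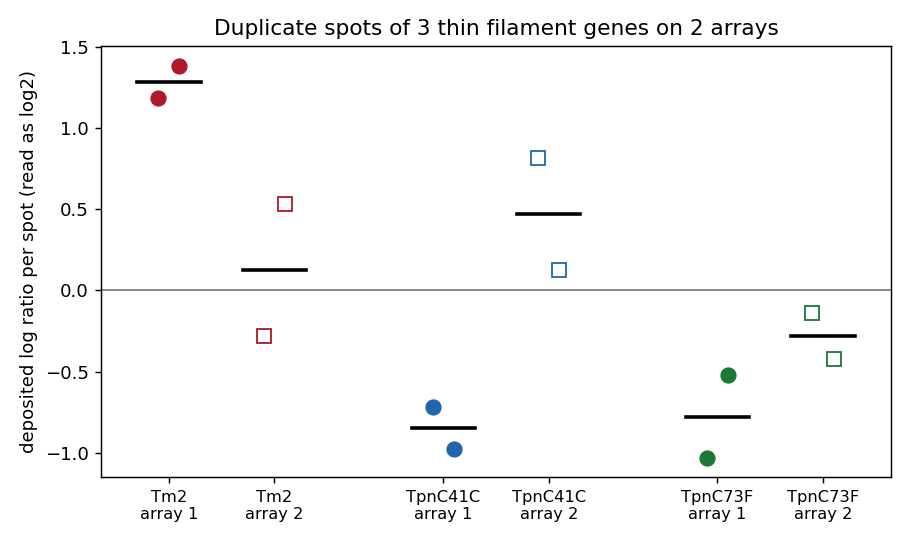
Deposited log ratio (read as log2, vertical axis) of each duplicate spot of Tm2, TpnC41C and TpnC73F on array 1 (filled circles) and array 2 (open squares), with a bar at the mean of the 2 spots. Array 1 spots lie at 1.19 and 1.38 for Tm2 and below -0.5 for both troponin C genes, and array 2 means lie between -0.28 and 0.47.

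The 2 troponin C genes were close on array 1 and apart on array 2. TpnC41C minus TpnC73F was -0.07 on array 1, where the spots of the 2 genes overlapped. The same difference was 0.75 on array 2, where both TpnC41C spots lay above both TpnC73F spots. Turning array 2 reverses that order, to both TpnC41C spots below. Each order rests on 2 spots of 1 clone per gene, so nothing is read from it. Cross-hybridisation between troponin C genes was not tested, so it is uncertain how far each clone reads its own gene. TpnC4, TpnC25D and TpnC47D, the other troponin C genes listed, were not analysed here.

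Duplicate spots show how repeatable a clone was within 1 array, not how far the 2 pairs of extracts differed. On array 1 the spots of Tm2 differed by 0.20, those of TpnC41C by 0.26 and those of TpnC73F by 0.51, against a median of 0.16 over 8448 clones. On array 2 they differed by 0.81, 0.69 and 0.28 for the same genes, against a median of 0.32. Tm2 on array 2 was thus among the less repeatable clones, since 11.4% of clones differed more, and TpnC73F on array 1 was similar, with 11.7% of clones differing more. None of the 3 clones had both arrays' duplicates within 0.5 of each other, and TpnC73F missed that limit narrowly on array 1.

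Spots listed next to the members were centred nearer to 0 than the members on array 1, but the members were chosen on their ratios on both arrays. Over the 10 spots before and the 10 after each clone, the median ratio on array 1 was 0.14 around Tm2, -0.01 around TpnC41C and 0.15 around TpnC73F. On array 2 these medians were -0.002, -0.02 and 0.06. Single neighbours on array 1 ran from -0.38 to 2.18 around Tm2, from -0.73 to 0.84 around TpnC41C and from -0.71 to 1.33 around TpnC73F.

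Over all genes the fit made no call. No gene passed an adjusted p of 0.05 (0% of 2377, limma with Benjamini-Hochberg adjustment, lowest adjusted p 0.27), and with array 2 turned again none did (0%, lowest adjusted p 0.94). An unadjusted p under 0.05 was given by limma to 136 genes (5.72%) as deposited and to 95 genes (4%) with array 2 turned. The fit covered the 3 members, but they were chosen on these ratios, so no p-value is given for them. On array 1 all 3 were 1.5-fold or more from equality, a property of 6.14% of genes that the choice of members already used. On array 2 0 of 3 reached 1.5-fold, against 4.75% of genes. The choice used the array 2 ratios too, so that count is no separate check. None of the 3 passed 1.5-fold on both arrays, either with one sign (0.126% of genes) or with opposite signs (0.126%).

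**Figure D2:**
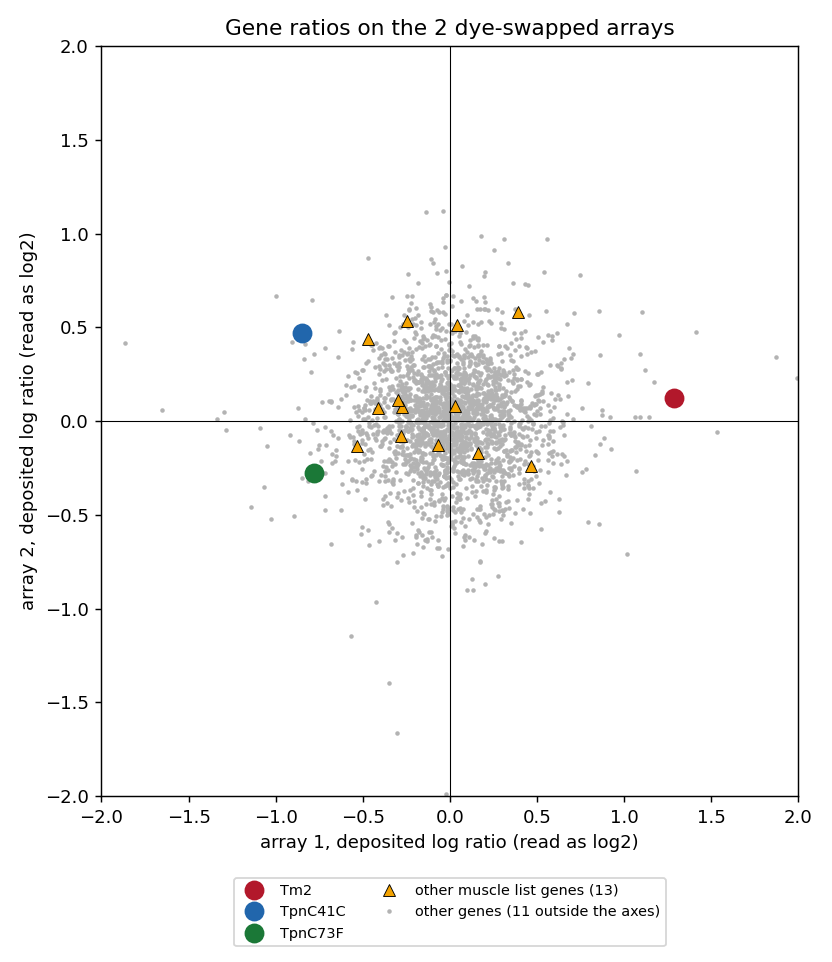
Gene ratios on array 1 (horizontal) against array 2 (vertical), both as deposited and read as log2, for Tm2, TpnC41C, TpnC73F, 13 other muscle list genes and the remaining genes (11 lie outside the axes). Along array 1 the 3 members stand in the outer parts of the cloud, at 1.29, -0.85 and -0.78, though other genes lie farther out. Along array 2 they stand inside its height.

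The rest of the contractile apparatus was read from lists of muscle genes. Of 20 thin filament genes listed 6 were measured, of 11 thick filament genes 3, of 11 Z-disc and attachment genes 3, of 10 calcium handling genes 3 and of 8 muscle regulators 1, and none of the EF-hand or flight muscle energy genes. That left 13 genes besides the members. None of the 13 passed an adjusted p of 0.05 under either coding (limma, over all genes). An unadjusted p under 0.05 went to 1 of 13 as deposited, against 5.72% of all genes. With array 2 turned it went to 1 of 13, against 4%. Nothing is read from either count. None reached 1.5-fold on either array, although RyR fell just short of it on array 2.

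The 3 other thin filament genes measured were negative on array 1, against 49% of all genes, and nothing is read from so few. Act88F, the actin of the indirect flight muscle, had -0.41 on array 1 and 0.07 on array 2. The troponin T gene up, whose product anchors the complex to tropomyosin, had -0.47 and 0.44. Its spots read -0.49 and -0.45 on array 1 and 0.20 and 0.67 on array 2. As deposited, the signs of Act88F and up thus ran as those of TpnC41C did, a pattern of 24.9% of all genes. The array 2 value of Act88F was smaller than the median size of 0.17 over all genes there, so its sign says little. With array 2 turned, up had a mean of -0.45 ± 0.02 (SD, n = 2). Of the 13 list genes that are not members, it was the 1 with an unadjusted p under 0.05 (0.029, limma adjusted p = 0.94). The actin capping protein gene cpa, which is not specific to muscle, was near equality at -0.07 and -0.13.

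The listed thick filament genes lay between -0.53 and 0.04 on array 1. Prm, which encodes paramyosin of the filament core, had -0.53 on array 1 and -0.13 on array 2. Both values were negative as deposited, as for TpnC73F and for 572 of all 2377 genes. Mlc-c, a cytoplasmic myosin light chain and not one of the sarcomere, had -0.28 and -0.08. Strn-Mlck, a giant gene of the myosin light chain kinase family, had 0.04 and 0.51, and its 4 spots on array 2 ran from -0.09 to 1.5.

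Genes of the Z-disc, where thin filaments are anchored, and of muscle attachment were closer to 0. Zasp66, a Z-disc scaffold, had -0.28 on array 1 and 0.08 on array 2. The filamin gene cher, an actin crosslinker, had 0.16 and -0.17, and kon, a transmembrane protein of muscle attachment, had 0.03 and 0.08. Every gene value of these 3 was under 0.3 in size, although the cher spots on array 2 ran from -0.62 to 0.28.

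RyR, the channel that releases calcium towards troponin C, was positive at all of its spots as deposited. The share of all genes with every spot on one side was not counted. It had 0.39 on array 1 and 0.58 on array 2, with spots from 0.34 to 0.44 and from 0.42 to 0.75. Its mean was 0.49 ± 0.13 (SD, n = 2) as deposited, with an unadjusted p of 0.022 and a limma adjusted p of 0.72, and -0.09 ± 0.69 with array 2 turned. The calcium pump gene PMCA had -0.30 and 0.11, and the store calcium sensor gene Stim had 0.47 and -0.24. The splicing regulator gene mbl had -0.25 and 0.54.

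**Figure D3:**
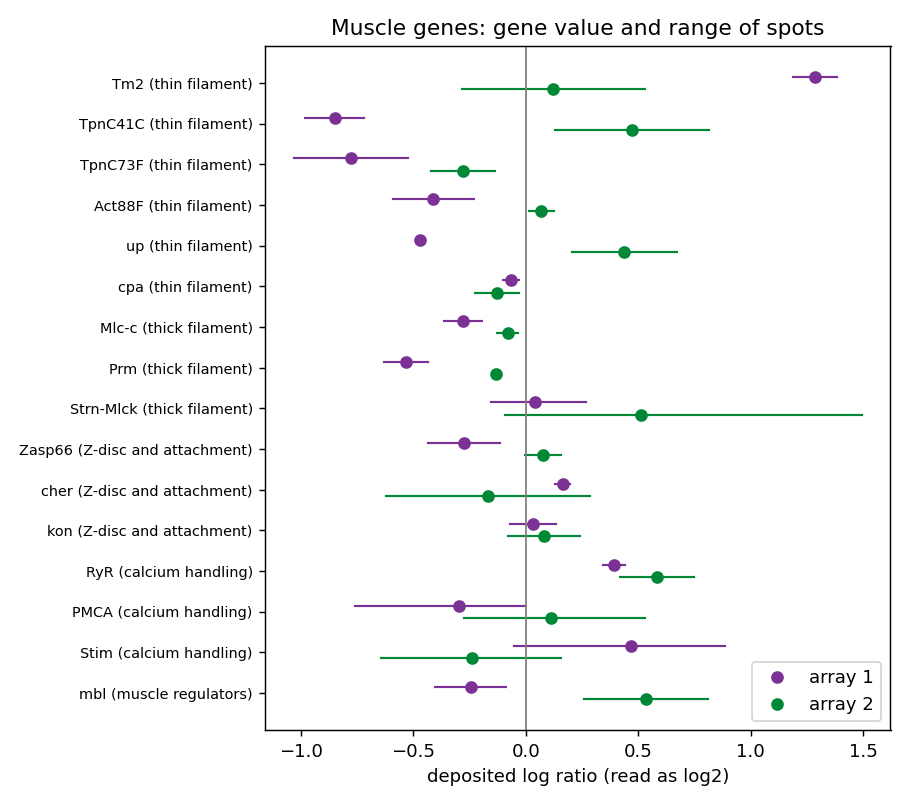
Gene values (points) and range of spots (lines) on array 1 and array 2 for the 3 members and 13 other muscle list genes, as deposited log ratios read as log2. Tm2 is the one thin filament gene to the right of 0 on array 1, at 1.29, and RyR lies right of 0 on both arrays.

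As a group, the 13 genes were centred at -0.25 on array 1 and at 0.08 on array 2 (medians), against 0.009 and 0.01 over all genes. On array 1, 8 of 13 were negative, against 49% of all genes, and on array 2, 5 of 13, against 48.5%. Opposite signs were found in 7 of 13, against 49.3% of all genes, and the pattern of TpnC41C, negative on array 1 and positive on array 2, in 5 of 13, against 24.9%. No call is made from these counts. On array 1 the other list genes ran from -0.53 to 0.47, and the 3 members lay beyond that range. On array 2 the other list genes ran from -0.24 to 0.58. Tm2 and TpnC41C lay inside that range, and TpnC73F, at -0.28, lay just below it. The members were chosen on these ratios, so nothing is read from either comparison.

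The 7 measured markers of neurons, photoreceptors, fat body and ovary lay between -0.24 and 0.21 on array 1. On array 2 their lowest value was -0.58 and their highest 0.34. On array 1, 5 of 7 were negative, against 49% of all genes, and on array 2, 4 of 7, against 48.5%. Nothing is read from these counts. The other 2 markers belong to male accessory gland and testis, tissues that females lack. Of these, Acp36DE had 0.66 on array 1 and 0.33 on array 2, and Mst84B had -0.38 and -0.45. As deposited, limma gave them an unadjusted p of 0.022 and 0.044 (limma adjusted p 0.72 and 0.82), much as for RyR. With array 2 turned the unadjusted p was 0.50 and 0.89 (limma). The part of these markers in the members' ratios was not tested.

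**Figure D4:**
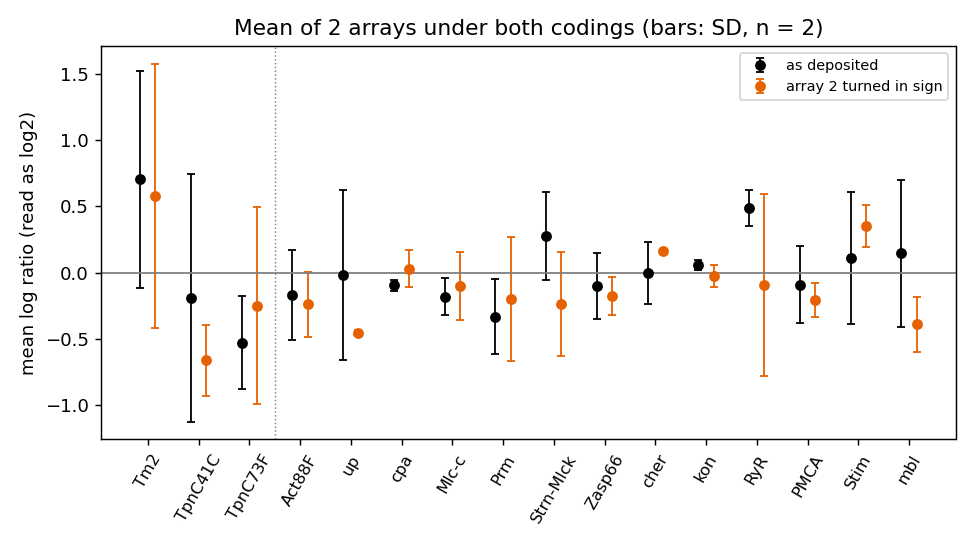
Mean log ratio over the 2 arrays (read as log2, bars SD, n = 2) for the 3 members (left of the dotted line) and 13 other muscle list genes, as deposited (black) and with array 2 turned in sign (orange). Tm2 stays positive and both troponin C genes stay negative. TpnC41C exceeds its SD with array 2 turned and TpnC73F as deposited. With 2 arrays no mean can exceed its SD under both codings, so nothing is read from this.

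The sign of each member's mean did not depend on the coding of array 2, because each had its larger ratio on array 1. Tm2 was positive and both troponin C genes were negative under either coding, and those signs are those of array 1 alone. Which troponin C gene had the more similar ratios on the 2 arrays did depend on the coding. With 2 arrays a mean cannot exceed its SD under both codings, so no stability is read from either gene.

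Genes with the most similar pair of ratios were found by Euclidean distance over the 2 arrays, a likeness of 2 values only. Nearest to Tm2 were Sod2, the mitochondrial superoxide dismutase gene (1.17 on array 1 and 0.21 on array 2, distance 0.14), CG16782 (distance 0.17) and dnc, a cyclic AMP phosphodiesterase gene (distance 0.22). Nearest to TpnC41C were the odorant binding protein gene Obp19d (-0.83 and 0.41, distance 0.07), out (distance 0.07) and CG5969 (distance 0.14). Nearest to TpnC73F were CG5421 (-0.81 and -0.32, distance 0.05), CG15167 (distance 0.06) and CG32820 (distance 0.07). None of these nearest genes was on a muscle list, but only 13 of the 2377 genes were list genes besides the members. On array 1 those 13 ran from -0.53 to 0.47, short of every member, so nothing is read from this.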

How the data were processed

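The deposited values, 1 for each spot of an array, are signed log ratios and were taken as log2. How the authors corrected and normalized them is not given in the sources used here. Adjacent spots were taken as duplicates of a clone, from their shared annotation. Spots were averaged within clones and clones within genes. Entrez identifiers of the platform annotation gave the names: 5666 spots had 1 symbol, 152 several and 11078 none. Ratios of 2377 genes were tested against 0 over both arrays with limma 3.58.1 in R 4.3.3 (lmFit, eBayes, Benjamini-Hochberg over all genes), with no dye term, and the test was run on simulated data first. Intensities were not used, so depth is unknown and the number of arrays limits precision. The members and lists were chosen with earlier results of these data known. Genes named were the members, all measured genes of the muscle lists and the 3 genes nearest each member. Alternatives covered the sign of array 2, centring, scaling, log base, averaging, spot filters, robust eBayes, duplicateCorrelation and single arrays. No coordinates or sequences are given, since no source ties the clones to a build.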

Additional observations from a re-analysis of the deposited data

How the results depend on the processing

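As deposited, the members' means differed widely between single arrays. They ran from 0.12 to 1.29 for Tm2, from -0.85 to 0.47 for TpnC41C and from -0.78 to -0.28 for TpnC73F. In that coding the sign of TpnC41C depends on which array is read. Turning array 2 makes the signs of Tm2 and TpnC73F depend on it instead. With array 2 turned, the mean of TpnC41C was -0.66 against -0.19 as deposited, and that of TpnC73F -0.25 against -0.53. With 2 arrays the SD is too wide a yardstick to show that any of these means is stable. Read as natural logs, the means became 1.02, -0.27 and -0.76. A limit of 0.5 on the difference between duplicate spots (concordant clones) removed all 3 members, so they have no value there. The count of genes past an adjusted p of 0.05 (limma) was 0 except when clones with any spot beyond 3 in size were left out (8 genes, and 0 with array 2 turned, lowest limma adjusted p 0.22) and among concordant clones (5, or 3 with array 2 turned). None of these calls was a muscle list gene, and the cause of the change was not tested. The lists gave 0 calls in all settings. An unadjusted p under 0.05 (limma) went in each to 1 of the list genes (or their clones) that are not members. The exception was 2 of 11 among concordant clones with array 2 turned. Over all genes (or clones) the share at that limit ran from 3.78% in that setting to 7.45% with duplicate spots kept. Each ratio pairs an ethanol with a water extract, so the test of ratios against 0 is already the paired comparison.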
